A study of Mus musculus with 4 samples.

Results

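Hippocampal subfield markers are genes whose transcripts are enriched in the principal neurons of 1 region of the hippocampus. The 10 markers described here were listed by name, 3 for the dentate gyrus (Prox1, C1ql2 and Dsp), 3 for CA1 (Wfs1, Fibcd1 and Pou3f1), 2 for CA2 (Amigo2 and Pcp4) and 2 for CA3 (Grik4 and Bok), out of 29300 genes in the deposited table. RNA was sequenced from the whole hippocampus of 2 control mice and 2 surgery mice on day 1. All 4 were wild-type C57BL/6 males, 7 to 8 months old, that received isoflurane anesthesia and tramadol. Surgery mice also underwent an open tibial fracture with an intramedullary nail, which serves as a model of perioperative neurocognitive disorder (PND), whereas control (sham) mice received no operation, so anesthesia is shared by both groups and no mouse was left without it. The question was whether the markers of any subfield differed between surgery mice and control mice.

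The hippocampus is a chain of neuron populations. Granule cells of the dentate gyrus receive cortical input and send mossy fibres to the pyramidal neurons of CA3, which in turn project to CA1, the main output stage, while the small CA2 field lies between CA3 and CA1 and is known for its part in social memory. Each population keeps its own set of transcription factors, receptors and adhesion molecules in adult life, and these sets are used to tell the subfields apart in tissue sections and in sequencing data.

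A promoter was found for 9 of the 10 markers in the RefSeq table for GRCm38.p6, all but Pou3f1. The sequences are the 250 bases before the RefSeq start site, 5′ to 3′ on the strand of the gene, and the capitals mark the GC box (GGGCGG or, on the other strand, CCGCCC), a short motif common in promoters. Promoters of 3 genes are shown for the contrast between them in the comparison below: Prox1 was the dentate gyrus marker with the highest surgery to control ratio, C1ql2 is a marker of the same granule cells with a ratio below 1, and Fibcd1 is a CA1 marker that fell.
Prox1 (chr1:190170828-190171077, minus strand): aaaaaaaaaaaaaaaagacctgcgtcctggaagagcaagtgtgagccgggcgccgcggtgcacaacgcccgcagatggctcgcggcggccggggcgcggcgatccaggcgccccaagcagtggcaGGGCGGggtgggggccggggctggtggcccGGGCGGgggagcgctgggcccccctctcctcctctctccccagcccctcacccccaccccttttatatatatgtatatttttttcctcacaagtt
C1ql2 (chr1:120340332-120340581, plus strand): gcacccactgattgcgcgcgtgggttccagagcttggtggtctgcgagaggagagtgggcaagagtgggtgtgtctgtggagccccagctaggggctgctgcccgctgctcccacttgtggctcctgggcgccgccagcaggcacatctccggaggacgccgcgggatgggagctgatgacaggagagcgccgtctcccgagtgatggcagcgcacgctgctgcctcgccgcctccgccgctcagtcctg
Fibcd1 (chr2:31846006-31846255, minus strand): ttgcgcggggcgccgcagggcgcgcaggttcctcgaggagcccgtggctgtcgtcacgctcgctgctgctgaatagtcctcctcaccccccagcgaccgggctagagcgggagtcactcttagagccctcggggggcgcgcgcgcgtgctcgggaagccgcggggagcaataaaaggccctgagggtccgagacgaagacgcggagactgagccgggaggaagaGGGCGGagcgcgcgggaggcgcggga
RefSeq lists a second Prox1 start site, whose 250 bases (1 GC box and 0 TATA boxes) lie inside the gene and are not printed. The Prox1 promoter shown held 2 GC boxes, the C1ql2 promoter 0 and the Fibcd1 promoter 1, and 32.7% of 32851 promoters of this length held at least 1. Of the markers not printed, Wfs1, Dsp and Amigo2 had 4 each, Grik4 and Bok 1 each and Pcp4 0. The TATA box (TATAAA, both strands) was found in the Prox1 promoter shown, once, and in 12.4% of all promoters. The GC content of the promoters was 64.8% for Prox1, 68.8% for C1ql2 and 71.6% for Fibcd1, all above the median of 52.4%. For Wfs1 and Grik4, the other markers that fell, the same 250 bases lie partly inside the transcribed gene of GENCODE M21 (223 and 122 bases), and they are not printed.

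Library totals ran from 15763432 to 18573386 counts, and 17144 genes passed the filter on low counts, 9 of the 10 markers among them. Across these genes, 4450 (26.0%) differed between the groups at an adjusted p under 0.05 by edgeR (quasi-likelihood test, Benjamini-Hochberg adjusted), 13.1% higher and 12.8% lower in surgery mice. The log2 fold change of a gene followed the GC content of its transcript (Spearman's rho of -0.63 across 17120 genes, which are not independent replicates). The median fell from 0.59 in the eighth of genes with the lowest GC content to -0.34 in the eighth with the highest. After correction for the dependence of each library on the length and GC content of transcripts, 2.42% of genes passed the threshold (0.689% higher and 1.73% lower), and corrected values are given below for the markers and panel genes whose call differed. Library control 1 stood apart in choroid plexus transcripts, with a summed level of 127 CPM (counts scaled to the TMM-adjusted library total) over 6 markers against 2031 to 5407 CPM in the other 3 libraries. Mitochondrially encoded transcripts other than rRNA took 2.53% to 2.82% of the counts in control mice and 4.45% to 4.49% in surgery mice, and their part in the results below was not tested.

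In the whole hippocampus, 3 of the 9 markers tested fell in surgery mice, namely Wfs1 and Fibcd1 of CA1 and Grik4 of CA3, and 0 rose in edgeR's quasi-likelihood test, beside 12.8% and 13.1% of all genes tested. At an unadjusted p under 0.05, 6 were lower and 1, Prox1, was higher, beside 19.4% and 19.9% of all genes tested. DESeq2 called 5 lower and 1 higher, beside 12% and 10.7%. All 3 markers that fell also met the fold threshold for a differentially expressed gene (DEG, fold change of at most 0.67), which 2.25% of the genes tested met in this direction and 6.75% with a rise. The 2 libraries of each group did not overlap for 8 of the 9 markers, beside 65.5% of all genes tested (33.2% higher and 32.2% lower in surgery mice). Of these 8, 7 were lower in surgery mice and 1, Prox1, was higher, while Dsp overlapped. The median log2 fold change of the 9 markers was -0.39, beside 0.01 for all genes tested. With the length and GC trend removed, 1 marker, Grik4, remained past the threshold (3 lower and 0 higher at an unadjusted p under 0.05, beside 14.6% and 7.90% of all genes tested), and the median of the markers was -0.08. Without control mouse 2, 5 markers fell, and without surgery mouse 1, 6 fell, whereas without control mouse 1 or surgery mouse 2, 3 fell and Prox1 rose. Of all genes tested, 6.75% fell and 6.72% rose without control mouse 2, 11.6% and 11.3% without surgery mouse 1, 9.62% and 10% without control mouse 1, and 7.54% and 8.88% without surgery mouse 2. Because whole tissue was sequenced, fewer cells of a subfield and less RNA per cell cannot be told apart, and neither reading was tested. What set the length and GC trend between the groups was not tested either, and the labels name no batch.

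**Figure D1:**
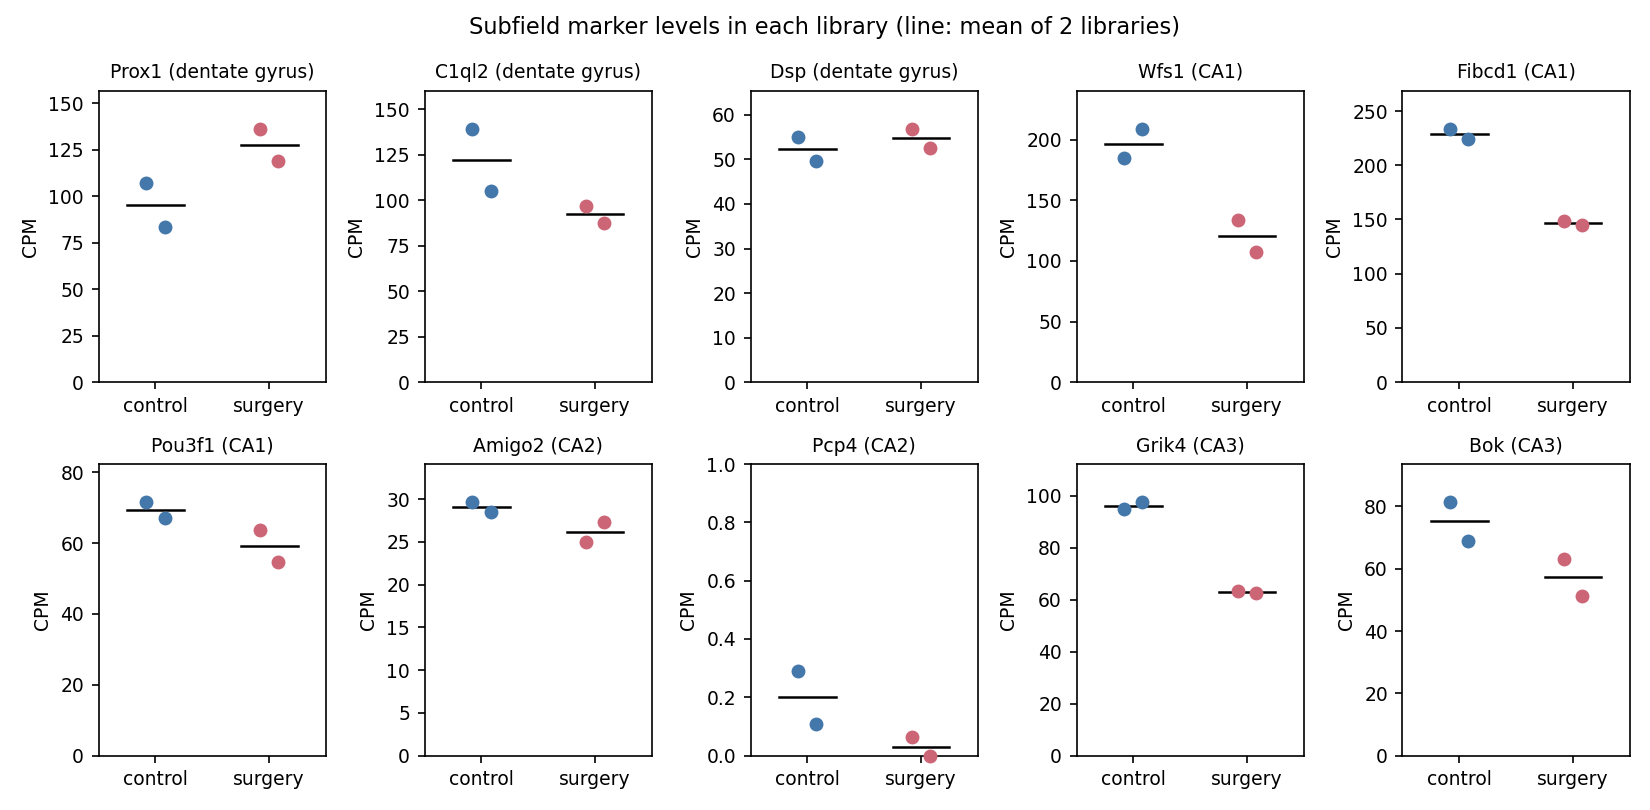
Levels of the 10 subfield markers in CPM (vertical axes, each starting at 0) in the 2 control and 2 surgery libraries; points are libraries and lines are group means. Wfs1, Fibcd1 and Grik4 show surgery libraries well below control libraries, both surgery libraries of Prox1 are above the controls by a narrow margin, the groups of Dsp overlap, and Pcp4 stays under 0.3 CPM in each library.

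CA1 held 2 of the 3 markers that fell. Wfs1 (chromosome 5, 36966104 to 36989205, minus strand, mm10) encodes wolframin, a glycoprotein of the endoplasmic reticulum membrane involved in calcium handling and the unfolded protein response, and it labels CA1 pyramidal neurons. It was measured at 184 CPM in control mouse 1, 209 in control mouse 2, 134 in surgery mouse 1 and 108 in surgery mouse 2. Both surgery mice lay below both control mice, and the pair of surgery mice was spread about as widely as the pair of control mice (197 ± 17.4 CPM in control and 121 ± 18.7 in surgery mice, mean ± SD, n = 2 each). The log2 fold change of Wfs1 was -0.70 (SE 0.12, fold 0.614), with an adjusted p of 0.0085 in edgeR's quasi-likelihood test. With the length and GC trend removed it was -0.44 (SE 0.12) and the adjusted p was 0.0995, so the call was lost.

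Fibcd1 (chromosome 2, 31813290 to 31846005, minus strand) encodes a membrane receptor with a fibrinogen C domain that binds acetylated sugars such as chitin. Its levels were 234 and 224 CPM in the control mice and 148 and 145 CPM in the surgery mice. The gap between the groups was many times the difference within either pair, and Fibcd1 had the smallest adjusted p of the 9 markers. The fold was 0.641 (log2 fold change -0.64, SE 0.06, adjusted p = 0.0043 in edgeR's quasi-likelihood test). Removing the length and GC trend left -0.35 (SE 0.07) with an adjusted p of 0.059, above the threshold, so this call was lost too.

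Pou3f1 (chromosome 4, 124656807 to 124660655, plus strand), also known as Oct6, encodes a POU domain transcription factor. It stood at 71.6 and 67.1 CPM in control mice and 63.6 and 54.7 CPM in surgery mice. The groups did not overlap, but the difference was not past the threshold (log2 fold change -0.23, SE 0.09, adjusted p = 0.12 in the same test). The sign turned with the length and GC trend removed (0.12, adjusted p = 0.52), and leaving out 1 surgery mouse moved it either way, to -0.36 (adjusted p = 0.038, edgeR) without surgery mouse 1 and to -0.12 (adjusted p = 0.46) without surgery mouse 2. In GENCODE, 8.57% of the exon bases of Pou3f1 overlap an antisense gene, and whether the counting used strand is not given in the sources used here.

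CA3 was represented by Grik4 and Bok. Grik4 (chromosome 9, 42518135 to 42944493, minus strand) encodes the high-affinity kainate receptor subunit GluK4, which forms glutamate-gated channels with low-affinity subunits and is known from the mossy fibre synapse on CA3 neurons. The levels of Grik4 were 94.9 and 97.7 CPM in control mice and 63.5 and 62.8 CPM in surgery mice. The members of each pair were nearly equal, and the 2 pairs were far apart. Grik4 was at 0.656 of its control level (log2 fold change -0.61, SE 0.07, adjusted p = 0.0045 in edgeR's quasi-likelihood test). It was the marker whose call held in all 11 alternatives (other normalizations, filter, test, block, trend removal and the omission of each library), with log2 fold changes from -0.64 to -0.52 and a largest adjusted p of 0.028, reached when the length and GC trend was removed.

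Bok (chromosome 1, 93685660 to 93695764, plus strand) encodes a member of the BCL2 family of the effector kind, like Bax and Bak1, which act at the outer membrane of mitochondria. It was measured at 81.4 and 69.0 CPM in control mice and at 63.3 and 51.4 CPM in surgery mice. The groups were separate, although the lower control mouse was closer to the higher surgery mouse than to the other control mouse. The log2 fold change of Bok was -0.39 (SE 0.13) and its adjusted p was 0.064 in edgeR's quasi-likelihood test, while DESeq2 called it lower (-0.40, adjusted p = 0.026). It passed the threshold without control mouse 2 (-0.51, adjusted p = 0.043) and without surgery mouse 1 (-0.56, adjusted p = 0.012), was -0.27 without control mouse 1 and -0.24 without surgery mouse 2 (adjusted p = 0.19 in each, edgeR), and was -0.08 with the length and GC trend removed. Of the other effectors, Bak1 fell (log2 fold change -0.68, SE 0.17, adjusted p = 0.033, same test) from 9.58 and 9.46 CPM to 6.46 and 5.45 CPM, and Bax was at -0.31 (SE 0.12, adjusted p = 0.099). DESeq2 called neither Bak1 nor Bax, and neither was past the threshold with the trend removed (adjusted p = 0.22 for Bak1 and 0.92 for Bax, edgeR). In GENCODE, 18.2% and 7.35% of the exon bases of Bak1 overlap gene entries named Ggnbp1 on the opposite strand. For Bax, 12.2% of the exon bases overlap a gene on the same strand.

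None of the 3 dentate gyrus markers passed the threshold in edgeR's test with condition as the only term. With the replicate number as a block, edgeR called Prox1 higher (0.43, adjusted p = 0.0058) and C1ql2 lower (-0.40, adjusted p = 0.013). Prox1 (chromosome 1, 190118035 to 190170714, minus strand) encodes a homeodomain transcription factor that specifies and maintains granule cell identity. Its level was 107 CPM in control mouse 1, 83.3 in control mouse 2, 137 in surgery mouse 1 and 119 in surgery mouse 2. Both surgery mice lay above both control mice, and the 2 control mice differed by more than control mouse 1 differed from surgery mouse 2. The log2 fold change of Prox1 was 0.43 (SE 0.13, 95% confidence interval 0.12 to 0.74), with an unadjusted p of 0.015 and an adjusted p of 0.054 in edgeR's quasi-likelihood test. DESeq2 called it higher (0.42, adjusted p = 0.011), and so did edgeR with library totals only (0.47, adjusted p = 0.037). Among the fits with a library left out, the log2 fold change was 0.61 (adjusted p = 0.010) without control mouse 1 and 0.53 (adjusted p = 0.026) without surgery mouse 2 in the same test. It was 0.25 (adjusted p = 0.16) without control mouse 2 and 0.31 (adjusted p = 0.13) without surgery mouse 1, and the adjusted p was 0.47 with the length and GC trend removed (log2 fold change 0.19).

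C1ql2 (chromosome 1, 120340582 to 120343174, plus strand) encodes a secreted C1q-like protein that granule cells release at mossy fibre synapses, where it takes part in clustering kainate receptors. It was at 139 and 105 CPM in control mice and at 96.7 and 87.7 CPM in surgery mice. Control mouse 1 was the highest of the 4, and control mouse 2 was nearer to the surgery mice than to control mouse 1. The log2 fold change was -0.41 (SE 0.13, adjusted p = 0.068 in edgeR's quasi-likelihood test), and -0.06 with the length and GC trend removed, while DESeq2 called C1ql2 lower (-0.42, adjusted p = 0.014). Without control mouse 2 it was -0.60 with an adjusted p of 0.013 in the same test, and without surgery mouse 1 it was -0.49 with an adjusted p of 0.042. It was -0.20 (adjusted p = 0.21) without control mouse 1 and -0.33 (adjusted p = 0.15) without surgery mouse 2.

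Dsp (chromosome 13, 38151294 to 38198577, plus strand) encodes desmoplakin, which anchors intermediate filaments at desmosomes and is enriched in granule cells within the hippocampus. The levels of Dsp were 55.0 and 49.6 CPM in control mice and 56.9 and 52.7 CPM in surgery mice. The groups overlapped, and no difference was detected (log2 fold change 0.07, SE 0.09, 95% confidence interval -0.14 to 0.28, adjusted p = 0.62 in the same test). Prox1, C1ql2 and Dsp gave log2 fold changes of 0.43, -0.41 and 0.07, and 0.19, -0.06 and 0.13 with the length and GC trend removed. The differences among the 3 were not tested.

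CA2 rested on Amigo2 alone. Amigo2 (chromosome 15, 97244074 to 97247287, minus strand) encodes a cell adhesion protein with leucine-rich repeats and an immunoglobulin domain that is strongly expressed in CA2 pyramidal neurons. It was the lowest of the 9 markers tested in CPM, at 29.7 and 28.5 in control mice and 25.0 and 27.3 in surgery mice. The groups were separate by a narrow margin, and no difference was detected (log2 fold change -0.15, SE 0.10, 95% confidence interval -0.39 to 0.08, adjusted p = 0.29 in edgeR's quasi-likelihood test). Pcp4 (chromosome 16, 96467606 to 96525793, plus strand) encodes a small protein that binds calmodulin and is a standard marker of CA2. Its counts were 5 and 2 in control mice and 1 and 0 in surgery mice, which failed the filter, so it was not tested and no fold is given. This near absence goes against the use of Pcp4 as a marker in this table, and it stands beside a property of the annotation. The deposited table gives the gene Igsf5, on the same strand, a span from 96361668 to 96525580 on chromosome 16 that covers nearly all of Pcp4. In GENCODE M21, 243 of the 641 bases and 2 of the 3 exons of the main protein-coding transcript of Pcp4 are shared with a gene named Igsf5 whose identifier differs from that of the Igsf5 row in the deposited table. The deposited row held 11, 17, 2 and 8 counts in the same order of mice. Whether the authors' counting set aside reads that fall on both genes was not tested. Pcp4l1, a related gene on chromosome 1, had 807, 1327, 1014 and 1309 counts.

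**Figure D2:**
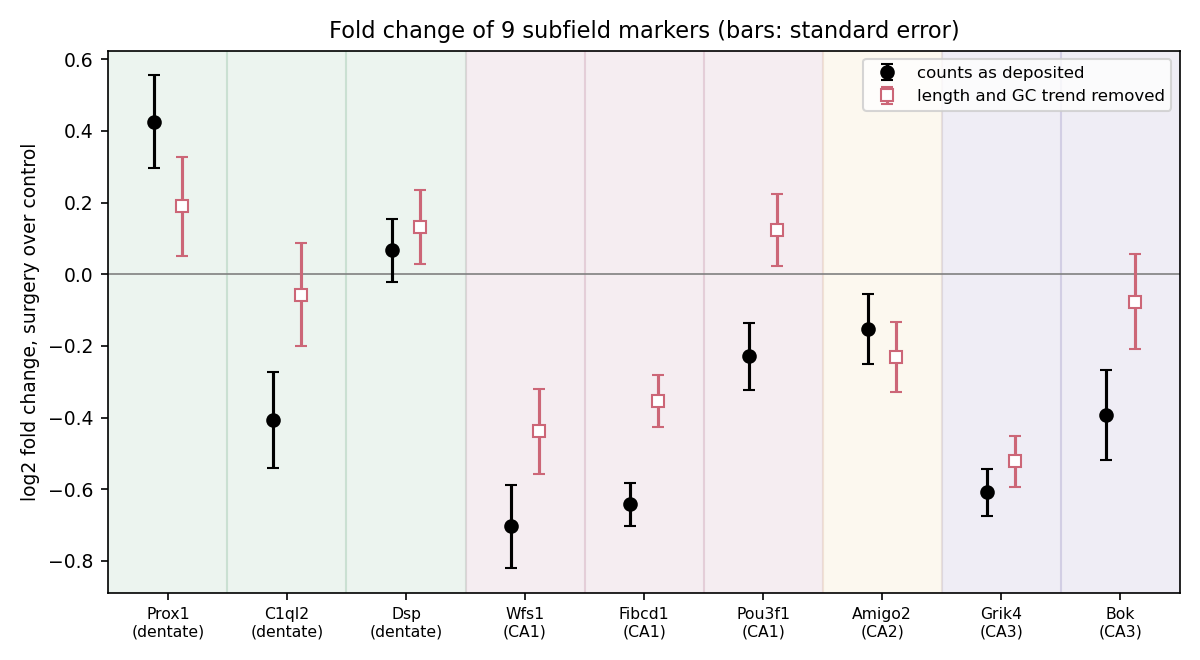
Log2 fold change, surgery over control (vertical axis), of the 9 markers tested, with bars for the standard error; filled circles are from the counts as deposited and open squares have the length and GC trends of the libraries removed. Grik4 moves least among the markers that fell (-0.61 to -0.52), while C1ql2 and Bok come close to 0 and Pou3f1 crosses it.

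The markers differed in transcript GC content, from 45.3% for Prox1 to 63.9% for Pou3f1. Wfs1, Fibcd1, C1ql2, Pou3f1 and Bok belong to the eighth of genes with the highest GC content, where the median log2 fold change was -0.34. Within that eighth, 5.56% of genes had a lower value than Wfs1 and 8.69% a lower value than Fibcd1, whereas 39.8% lay below C1ql2, 42.7% below Bok and 66.4% below Pou3f1. Grik4 has a GC content of 52.2%, and 5.05% of the genes of its eighth (median -0.17) lay below it. Prox1 was above the median of its eighth by 0.25, with 79.2% of that eighth below it. For Dsp, 68.8% of its eighth lay below it, and for Amigo2, 23.3%. These shares describe where each marker stood among genes of like GC content and were not tested.

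**Figure D3:**
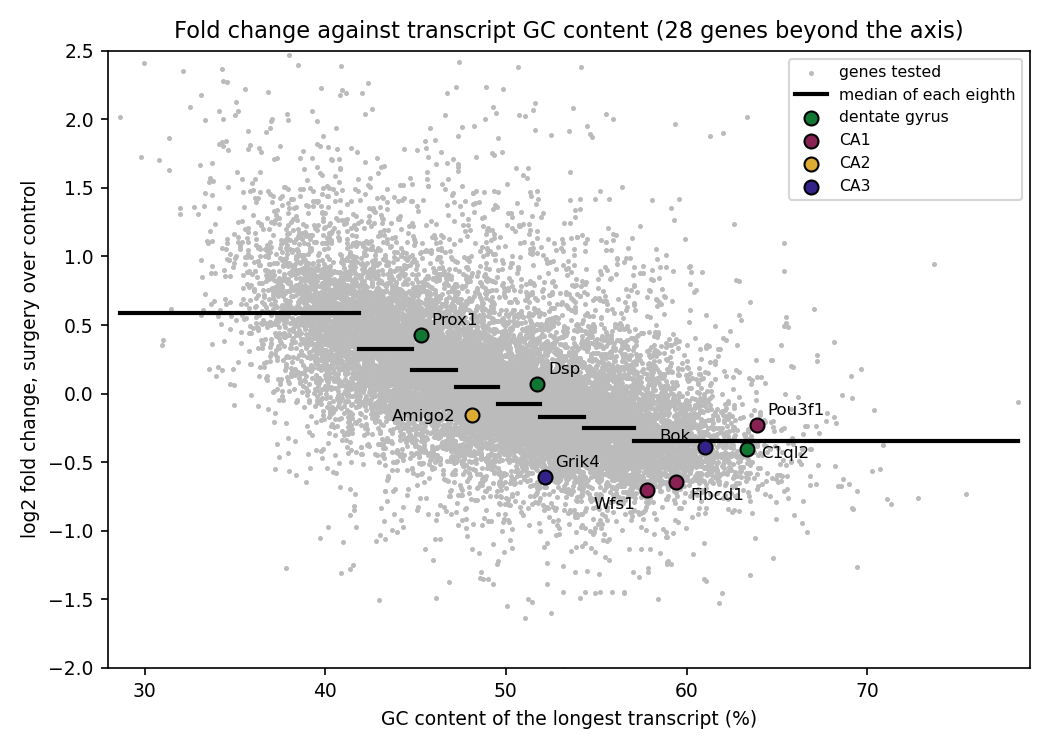
Log2 fold change, surgery over control (vertical axis), against the GC content of the longest transcript in percent (horizontal axis); grey points are genes tested, black lines the median of each eighth of genes by GC content, and coloured points the markers by subfield, with 28 genes beyond the vertical axis. The medians step down from 0.59 to -0.34, Wfs1, Fibcd1 and Grik4 lie below the line of their eighth, and C1ql2, Bok and Pou3f1 lie near it.

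Levels of different genes were set side by side as counts per kilobase of exon, scaled to the same total in each library as for TPM. In control mice C1ql2 was highest at 238 ± 48.2 (SD, n = 2), followed by Wfs1 at 202 ± 16.7, Fibcd1 at 187 ± 6.64 and Bok at 159 ± 19.3. Pou3f1 (70.0), Grik4 (62.7), Prox1 (44.1), Amigo2 (35.7) and Dsp (21.0) came next, and Pcp4 was at 0.76. The control ranges of C1ql2 and Wfs1 overlapped, as did those of Wfs1 and Fibcd1, while the ranges of every other pair of neighbours in this order were separate. In surgery mice the per-length level of Bok (121 ± 18.0) was next to those of Wfs1 (124 ± 19.5) and Fibcd1 (120 ± 2.14), and Prox1 (59.3 ± 5.78) stood above Grik4 (41.2 ± 0.38), the reverse of their order in control mice. The order rests on the length used. Over all 4 libraries, the length of the longest transcript gave Bok 138, Wfs1 128 and Fibcd1 120, so that Bok came before both, and gave Prox1 43.1 and Grik4 41.2.

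The balance between subfields was followed within each library as the mean log2 CPM of the markers of one subfield minus that of another, with Pcp4 left out of CA2. The dentate gyrus minus CA1 value was -0.64 and -0.95 in control mice and -0.25 and -0.21 in surgery mice, a difference of 0.56 (SD between replicates 0.16). For the dentate gyrus minus CA3 it was 0.09 and -0.12 in control mice and 0.52 and 0.53 in surgery mice, a difference of 0.54. The groups were separate in both, with the dentate gyrus higher relative to CA1 and to CA3 in surgery mice. They were also separate for CA1 minus CA2 (a difference of -0.37, lower in surgery mice) and CA2 minus CA3 (0.35, higher), where CA2 is Amigo2 alone. CA1 minus CA3 overlapped between the groups, at 0.73 and 0.83 in control mice and 0.77 and 0.74 in surgery mice. These differences are made from means of the markers above and were not tested. Dentate gyrus minus CA2 differed by 0.19 between the groups, and by 0.31, 0.066, 0.050 and 0.33 without control mouse 1, control mouse 2, surgery mouse 1 and surgery mouse 2. After removal of the length and GC trend the differences were 0.32 for the dentate gyrus minus CA1 and 0.39 for the dentate gyrus minus CA3. The differences depended on which genes stood for a subfield, since with further marker genes in place of the 10 the difference between the groups was 0.21 for the dentate gyrus minus CA1 and -0.24, the opposite direction, for the dentate gyrus minus CA3.

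**Figure D4:**
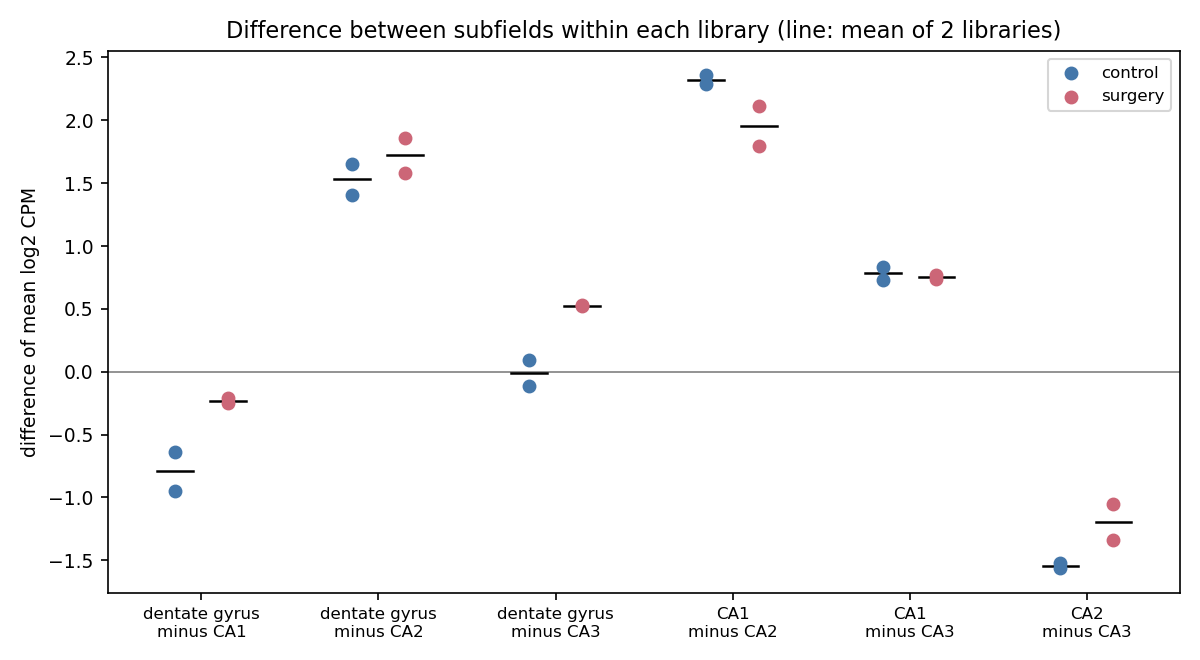
Difference in mean log2 CPM between the markers of 2 subfields (vertical axis) within each of the 4 libraries, for the 6 pairs of subfields (horizontal axis); points are libraries, lines group means, and CA2 is Amigo2 alone. Dentate gyrus minus CA1, dentate gyrus minus CA3 and CA2 minus CA3 are higher in both surgery mice, and CA1 minus CA2 is lower. CA1 minus CA3 stays between 0.73 and 0.83 in all 4 libraries.

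Further markers of the same subfields, 42 genes of which 41 were tested, were read from the same fit. Of these, 6 rose and 6 fell, beside 13.1% and 12.8% of all genes tested, and the median log2 fold change was 0.11. Without control mouse 2, 2 rose and 3 fell, and without surgery mouse 1, 3 rose and 7 fell. In the CA3 panel, 4 of 10 genes rose and 1 fell, with a median of 0.45, opposite in sign to the values of Grik4 and Bok (DESeq2 called 2 higher and 1 lower). With the length and GC trend removed the median of the CA3 panel was 0.13 and none of its genes was past the threshold in edgeR's test (2 higher at an unadjusted p under 0.05). Elavl2, an RNA-binding protein of neurons, was at 47.4 and 44.2 CPM in control mice and 82.3 and 88.8 CPM in surgery mice. It had the smallest adjusted p of any panel gene (log2 fold change 0.90, SE 0.08, adjusted p = 0.0043 in edgeR's quasi-likelihood test), and stood at 0.25 (adjusted p = 0.11) after removal of the trend. St18, a zinc finger transcription factor, rose by 0.50 on the log2 scale (adjusted p = 0.022, same test), Nectin3, an adhesion protein, by 0.41 (adjusted p = 0.033) and Galnt3, a glycosyltransferase, by 0.87 (adjusted p = 0.036). Homer3, a postsynaptic scaffold protein, fell by 0.42 (adjusted p = 0.019), and 25.4% of its exon bases overlap Ddx49 on the other strand. After removal of the trend St18 was at 0.07, Nectin3 at 0.19, Galnt3 at 0.59 and Homer3 at -0.11 (adjusted p from 0.20 to 0.80, edgeR).

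In the CA1 panel, 2 of 8 genes fell and 0 rose in edgeR's test, beside 12.8% and 13.1% of all genes tested (2 higher at an unadjusted p under 0.05, and 1 with DESeq2). Mpped1, a metallophosphoesterase, was at 275 and 287 CPM in control mice and 207 and 218 CPM in surgery mice (log2 fold change -0.40, SE 0.06, adjusted p = 0.0071 in edgeR's quasi-likelihood test). Lefty1, a secreted antagonist of Nodal signaling, was lower in level and fell by 0.65 on the log2 scale (adjusted p = 0.028, same test), and Spink8 had a value of -0.43 that was not past the threshold (adjusted p = 0.059). In the CA2 panel, 2 of 7 genes tested fell and 0 rose in edgeR's test, and DESeq2 also called 2 lower and 0 higher. No gene was higher at an unadjusted p under 0.05, yet the median log2 fold change of the panel was 0.17. The 2 called lower by edgeR were Rgs14, a regulator of G protein signaling that restrains plasticity in CA2 (log2 fold change -0.38, SE 0.07, adjusted p = 0.0098, edgeR), and Necab2, a neuronal calcium-binding protein (-0.42, SE 0.08, adjusted p = 0.014). Vcan, a proteoglycan of the extracellular matrix, was at 0.17 (adjusted p = 0.26), and Avpr1b, the vasopressin receptor of CA2, was under 1 CPM in each library and failed the filter. With the trend removed Mpped1 was at -0.25, Lefty1 at -0.37, Rgs14 at -0.28 and Necab2 at -0.06 (adjusted p from 0.079 to 0.68, edgeR).

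In the dentate gyrus panel, 2 of 12 genes rose and 1 fell, near the shares of all genes tested (13.1% and 12.8%), with a median of 0.08. Stxbp6, which binds SNARE proteins, rose from 78.3 and 68.7 CPM to 114 and 102 CPM (log2 fold change 0.55, SE 0.09, adjusted p = 0.0087 in edgeR's quasi-likelihood test). Calb1, the calcium buffer calbindin, rose by 0.48 (adjusted p = 0.017, same test), and Dgat2, an enzyme of triglyceride synthesis, fell by 0.31 (adjusted p = 0.016). With the trend removed the sign of Calb1 turned, to -0.31 (adjusted p = 0.078, edgeR), while Stxbp6 was at 0.20 (adjusted p = 0.30) and Dgat2 at -0.08 (adjusted p = 0.54). None of the 4 markers of mossy cells, the excitatory neurons of the hilus, passed the threshold in edgeR's test or with DESeq2, nor an unadjusted p of 0.05. Drd2 (-0.83, adjusted p = 0.19), Calb2 (0.15, adjusted p = 0.29) and Csf2rb2 (-0.40, adjusted p = 0.34) had the smallest adjusted p in the same test. With the length and GC trend removed, 0 of the 41 genes were past the threshold in edgeR's test, while 4 were higher and 5 lower at an unadjusted p under 0.05, beside 7.90% and 14.6% of all genes tested.

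**Figure D5:**
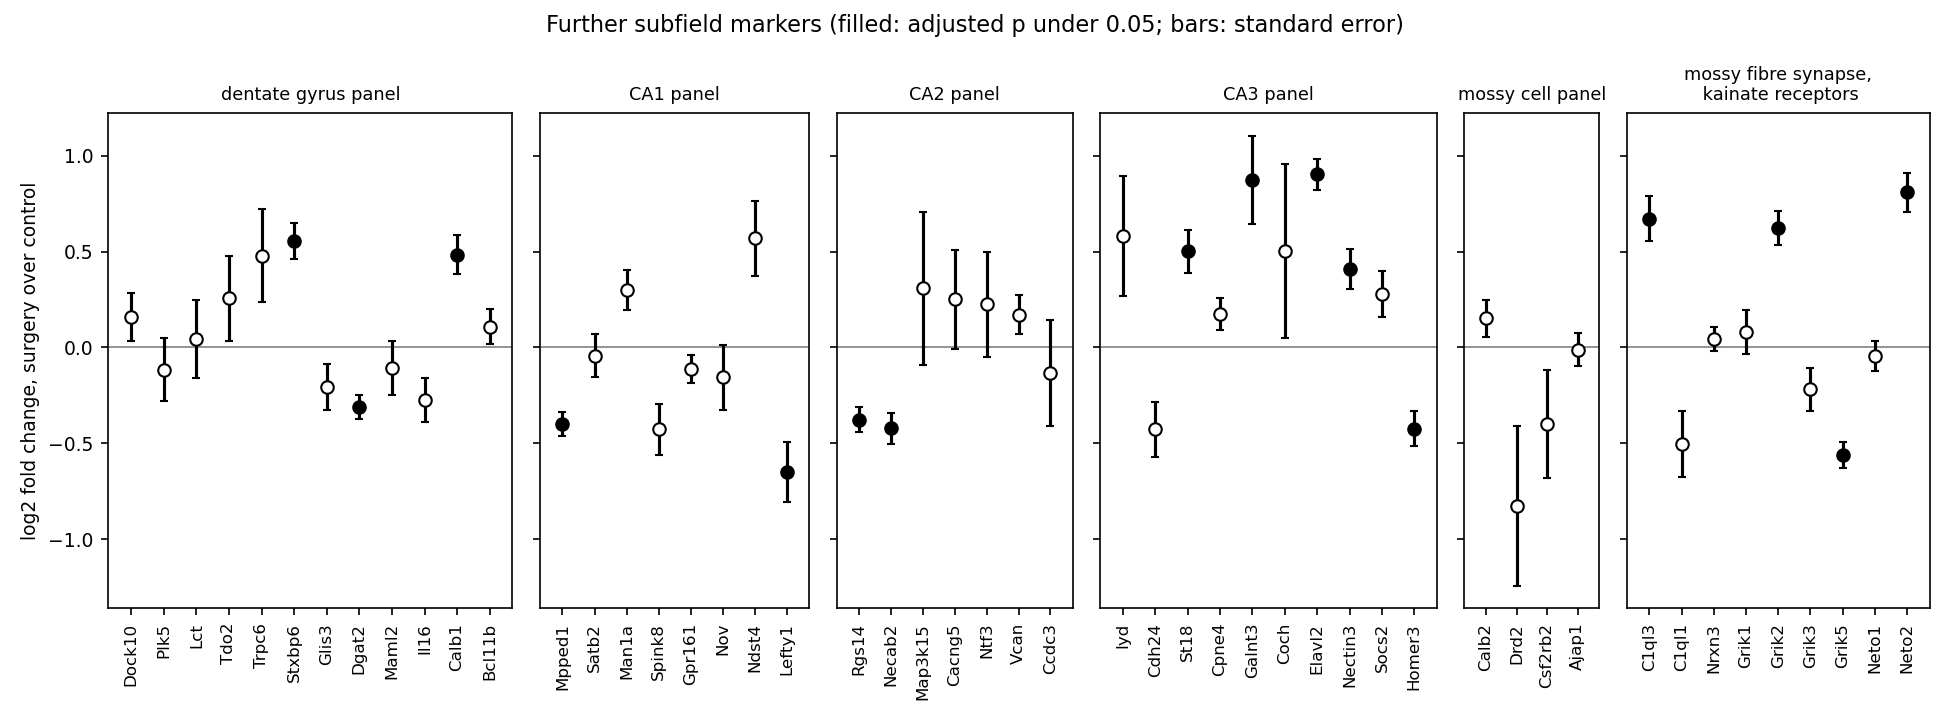
Log2 fold change, surgery over control (vertical axis), of further subfield markers and of genes of the mossy fibre synapse and kainate receptors that passed the count filter; bars are standard errors, and filled points have an adjusted p under 0.05. The CA3 panel holds 4 genes that rose and the CA1 and CA2 panels hold only genes that fell among those filled.

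Grik4 and C1ql2 belong to the same synapse, so the other kainate receptor genes and their partners were read from the same fit. Of 9 genes, 3 rose and 1 fell, beside 13.1% and 12.8% of all genes tested. Grik2, a low-affinity subunit that pairs with GluK4, was at 70.1 and 63.4 CPM in control mice and at 97.2 and 108 CPM in surgery mice. Both surgery mice lay above both control mice, the reverse of Grik4, and the log2 fold change was 0.62 (SE 0.09, adjusted p = 0.0060 in edgeR's quasi-likelihood test). Grik5, the other high-affinity subunit, fell from 336 and 354 CPM to 244 and 224 CPM (-0.56, SE 0.07, adjusted p = 0.0048, same test), in the direction of Grik4. Neto2, an auxiliary subunit of kainate receptors, rose by 0.81 (adjusted p = 0.0050), and C1ql3, the partner of C1ql2 at mossy fibres, rose by 0.67 (adjusted p = 0.010). With the length and GC trend removed Grik2 was at -0.08 and Neto2 at -0.01, while C1ql3 (0.80, adjusted p = 0.034) was past the threshold and Grik5 (-0.23, adjusted p = 0.13) was not. Neto1, at -0.04 before, was at -0.62 (adjusted p = 0.024) after removal. Of the exon bases of C1ql3, 61.0% overlap another gene on the opposite strand, so its reads cannot be assigned with certainty.

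Markers of other cells and neighbouring regions, 64 genes in 12 lists, held 9 genes that rose and 6 that fell, close to the shares of all genes tested (13.1% and 12.8%), and 0 and 1 in edgeR's test with the length and GC trend removed (8 and 3 at an unadjusted p under 0.05, beside 7.90% and 14.6% of all genes tested). Without control mouse 1 or surgery mouse 1, 10 fell. Among 6 markers of excitatory neurons, to which the subfield neurons belong, Slc17a7 (log2 fold change -0.39, adjusted p = 0.0064 in edgeR's quasi-likelihood test) and Camk2a (-0.26, adjusted p = 0.025) fell and Neurod6 (0.53, adjusted p = 0.029) rose. With the length and GC trend removed they were at -0.15, -0.13 and 0.13 (adjusted p from 0.27 to 0.62, edgeR), and the single call among the 64 genes was Snap25, a synaptic SNARE protein, at -0.62 (adjusted p = 0.031) from 0.01 before. The summed level of the 6 excitatory neuron markers was 9729 to 10113 CPM in control mice and 8631 to 8951 CPM in surgery mice. Camk2a was the largest part of it (5121 and 5023 CPM in control mice, 4228 and 4224 CPM in surgery mice). The median log2 fold change of the 6 was -0.08, and -0.01 with the trend removed. Higher and lower calls were 2 and 2 of 6 for interneurons, 2 and 1 of 5 for astrocytes, 0 and 1 of 3 for oligodendrocyte precursors, 1 and 0 of 5 for microglia, 2 and 0 of 5 for endothelial cells, and 1 and 0 of 6 for the subiculum and neocortex. No marker of oligodendrocytes, choroid plexus, leptomeninges, thalamus or striatum passed the threshold in edgeR's test (2 of the leptomeninges and 2 of the thalamus were higher at an unadjusted p under 0.05, and DESeq2 called 1 of the leptomeninges), and the most abundant of them, Mbp, Ttr, Dcn, Rora and Ppp1r1b, had adjusted p of 0.27, 1.00, 0.26, 0.088 and 0.32 in the same test. Surgery mouse 2 was highest in leptomeningeal transcripts (152 CPM against 58.8 to 60.1) and lowest in those of oligodendrocytes (3276 CPM against 4572 to 5330). The part of other cell types in the values of the 3 markers that fell was not tested.

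Genes with the most similar pattern over the 4 libraries were found by the Euclidean distance between centred log2 CPM values among 17135 other genes. Ryk (distance 0.013) and Hilpda (0.042) were nearest to Prox1, Pdlim2 (0.046) and Snx22 (0.049) to Wfs1, Pde4c (0.0071) and Scarb1 (0.0093) to Amigo2, and Slit1 (0.0092) and Plxdc1 (0.014) to Grik4. With 4 libraries in 2 groups these distances are a description only.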

How the data were processed

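The authors enriched poly(A) RNA from the hippocampus of 2 control and 2 surgery mice, sequenced 150 nt paired-end reads and mapped them to mm10 with HISAT. The submitters' processing notes also list TopHat2, Bowtie2 2.2.3 and HTSeq 0.6.0, without their roles. The deposited values are whole-number counts per gene, without normalization, and strand use and the treatment of reads on 2 genes are not given in the sources used here. Columns of the authors' own comparison (a mean signal, a fold change as a ratio, its log2, and p-values) were deposited too and were not used.

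The analysis was run in edgeR 4.0.16 under R 4.3.3: filterByExpr at a minimum count of 10, TMM, and the quasi-likelihood test (glmQLFit, glmQLFTest) with Benjamini-Hochberg adjustment over 17144 genes, with condition as the only term. A call is an adjusted p under 0.05, and a DEG also passes a fold threshold (1.5 upward, 0.67 downward). CPM on the log2 scale used a prior count of 2. Lengths, GC contents and overlaps are from GENCODE M21 (29238 of 29300 identifiers matched), and the length and GC trends were fitted with mgcv 1.9.3 (basis size 8) and entered as offsets. The alternatives were DESeq2 1.42.0, other normalizations, no filter, the replicate number as a block, and each library left out. Scripts were tested on simulated data. Without a GC trend, edgeR called 24 unchanged genes out of 16801 tested. With a GC trend imposed between the groups, it called 708 out of 16813, and 31 after the length and GC correction. With the replicate block the unchanged genes called were 72 without the trend and 1065 with it. Intervals are from the quasi-likelihood fit, whose estimate of the spread between replicates is moderated over the genes tested. Replicates differed by more than sampling noise (chi-square per degree of freedom of 13.4 in control and 8.45 in surgery mice).

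The markers and all gene lists were chosen with earlier results of these data known. Named are all markers and up to 3 panel genes per subfield with the smallest adjusted p, with the other called CA3 genes and the untested Avpr1b. Also named are called synapse genes, both other BCL2 effectors, called excitatory neuron genes and the most abundant gene of other lists where it bears on a result. The remaining names are genes that overlap or resemble a named gene and the genes of nearest pattern. Snap25 and Neto1 were named after their corrected values were seen.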

Additional observations from a re-analysis of the deposited data

How the results depend on the processing

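Grik4 and the direction of Wfs1 and Fibcd1 were the same in all 11 alternatives, and Wfs1 and Fibcd1 lost their calls in 1 of them, the length and GC correction. The cause of the changes below was not tested. All genes tested gave 2249 higher and 2201 lower calls; with no filter there were 1315 and 1350, with the length and GC correction 118 and 296, and with the replicate block and that correction 697 and 1552. Leaving out each library gave 1201 to 2025 higher and 1207 to 2080 lower calls. The markers gave 0 higher and 3 lower calls. There was 1 higher call with library totals only, DESeq2 and the replicate block, and there were 5 lower calls with DESeq2 and the replicate block and 1 with the length and GC correction. With the replicate block the added calls were Prox1, C1ql2 and Bok (edgeR, adjusted p = 0.0058, 0.013 and 0.0080). With the replicate block and the correction there were 3 lower calls, Wfs1, Fibcd1 and Grik4 (edgeR, adjusted p = 0.029, 0.0082 and 0.0047). Leaving out each library gave 0 to 1 higher and 3 to 6 lower. The panels gave 6 and 6 calls, with 2 higher without a filter, 0 higher and 0 lower with the correction (4 and 5 at an unadjusted p under 0.05, edgeR), 1 higher and 5 lower with the replicate block and correction, and 2 to 8 higher and 3 to 7 lower with each library left out. The other cell type lists gave 9 and 6 calls, 5 and 3 without a filter, 0 and 1 with the correction (8 and 3 at an unadjusted p under 0.05), and 7 to 13 higher and 4 to 10 lower with each library left out.

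The log2 fold change of Dsp reversed to -0.010 without control mouse 2 and to -0.0048 without surgery mouse 1, and that of Pou3f1 reversed to 0.12 with the correction, with or without the replicate block. Of the balances, dentate gyrus minus CA1 (0.56) became 0.21 with panel genes and 0.32 with the correction. Dentate gyrus minus CA3 (0.54) became -0.24 and 0.39, and dentate gyrus minus CA2 (0.19) became 0.083 and 0.33. CA1 minus CA2 (-0.37) became -0.13 and 0.0062, CA1 minus CA3 (-0.03) became -0.45 and 0.072, and CA2 minus CA3 (0.35) became -0.32 and 0.066. Including Pcp4, a choice made after seeing the data, gave 0.65 for dentate gyrus minus CA2, 0.083 for CA1 minus CA2 and -0.11 for CA2 minus CA3, but with 0 to 5 counts of Pcp4 a library these values depend on the prior count and are no measured balance. With each library left out, dentate gyrus minus CA2 ran from 0.05 to 0.33, CA1 minus CA2 from -0.53 to -0.21, CA1 minus CA3 from -0.08 to 0.03 and CA2 minus CA3 from 0.20 to 0.49. Per-length levels by the longest transcript, over all 4 libraries, were 164 for C1ql2, 50.9 for Pou3f1, 28.1 for Amigo2 and 17.1 for Dsp. These moved by more than the SD over all 4 libraries, which includes the difference between the groups. Wfs1 (163 to 128) and Fibcd1 (154 to 120) moved by less than that SD but by more than the SD within either group. The share of calls that were higher was 50.5%, 59.4% with library totals only, 28.5% with the correction and 31.0% with the block and correction.

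Replicate numbers gave no pairing: samples with the same number deviated together only weakly (r = 0.22 over 17144 genes, 2 pairs), and the labels tie the numbers to no shared litter or day. Where a library is left out, the lone sample of its group is assumed to vary like the other group. At these depths the median standard error of a log2 fold change was 0.14, and counts of Pcp4 were too few to test.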
